A study of Homo sapiens with 12 samples.

Results

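Promoter regions that were accessible in only 1 of 2 cancer cell lines were examined here. DU-145 is an established human castration-resistant prostate cancer line, and BT-549 is an established human triple-negative breast cancer line. Both carried tet-MUC1shRNA, a short hairpin RNA against MUC1 that doxycycline (DOX) switches on, and were analysed by ATAC-seq after a week of vehicle (0.1% DMSO) or DOX, with 3 replicates per condition and 12 libraries in all. No library came from cells with a control hairpin, so that the effect of DOX itself and that of MUC1 silencing cannot be told apart. A region was chosen by its absence from the other line: it lay on an autosome, had a bin within 1000 bp of a protein-coding transcription start site (TSS), shared no bin with the table of the other line and overlapped no peak in any of the other line's 6 libraries. Of 125475 accessible regions in both tables, 2397 were members. There were 1499 DU-145-only promoter regions among the 15103 promoter regions of DU-145 and 898 BT-549-only promoter regions among the 13896 of BT-549. They were named after 1353 and 794 genes, respectively, by the nearest protein-coding TSS.

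Tn5 transposase cuts DNA that is not wrapped in nucleosomes, so that ATAC-seq fragments pile up at active or poised promoters. Most housekeeping promoters lie in CpG islands, where CpG dinucleotides are kept at a high frequency, and are open in nearly every cell type. Promoters of lineage genes are more often poor in CpG and open only where the matching transcription factors are present. Many genes have several start sites, and a cell type can use one of them while another cell type uses a different one. AP-1 is a dimer of JUN and FOS family proteins that binds TGANTCA, where N is mostly C or G, and the GC box GGGCGG is bound by SP and KLF family factors.

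The genomic sequence around the highest bin shows how different the members are from one another. The sequences below are examples from the members with the highest coverage and the leading opening and closing members, not the whole of either set, and KRTAP4-6 and BST2 were added after their values were seen. Each is the longest stretch of the 300 bp window on the plus strand of hg38 (GRCh38) that holds no base annotated as untranslated exon, and capitals mark AP-1 (TGANTCA) and GC box (GGGCGG or CCGCCC) matches on either strand. They lie at chr15:97960401-97960700 (ARRDC4), chr15:82160097-82160300 (EFL1), chr3:16483001-16483300 (RFTN1) and chr17:41140801-41141100 (KRTAP4-6) for DU-145-only regions, and at chr9:23826338-23826600 (ELAVL2), chr13:67230446-67230700 (PCDH9), chr5:13946201-13946500 (DNAH5) and chr19:17405631-17405721 (BST2) for BT-549-only regions.
ARRDC4: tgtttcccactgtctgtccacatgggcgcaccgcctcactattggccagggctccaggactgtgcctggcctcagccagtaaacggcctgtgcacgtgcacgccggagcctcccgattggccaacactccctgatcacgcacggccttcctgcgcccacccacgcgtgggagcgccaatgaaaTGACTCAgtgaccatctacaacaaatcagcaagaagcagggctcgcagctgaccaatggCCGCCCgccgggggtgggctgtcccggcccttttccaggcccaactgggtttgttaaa
EFL1: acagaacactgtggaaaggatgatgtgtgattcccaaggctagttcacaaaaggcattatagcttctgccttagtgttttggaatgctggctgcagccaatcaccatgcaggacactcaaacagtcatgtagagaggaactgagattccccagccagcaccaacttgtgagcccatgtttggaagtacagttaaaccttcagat
RFTN1: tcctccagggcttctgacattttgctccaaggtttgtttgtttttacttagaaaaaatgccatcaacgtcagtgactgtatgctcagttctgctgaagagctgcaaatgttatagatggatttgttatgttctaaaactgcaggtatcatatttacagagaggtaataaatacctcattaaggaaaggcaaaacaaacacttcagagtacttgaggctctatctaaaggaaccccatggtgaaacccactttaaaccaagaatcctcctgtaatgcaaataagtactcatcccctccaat
KRTAP4-6: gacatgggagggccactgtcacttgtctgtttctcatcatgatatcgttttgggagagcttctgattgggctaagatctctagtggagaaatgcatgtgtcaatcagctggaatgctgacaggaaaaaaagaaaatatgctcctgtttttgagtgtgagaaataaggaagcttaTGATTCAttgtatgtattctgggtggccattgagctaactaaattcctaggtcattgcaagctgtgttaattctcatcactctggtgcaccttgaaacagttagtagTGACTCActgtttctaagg
ELAVL2: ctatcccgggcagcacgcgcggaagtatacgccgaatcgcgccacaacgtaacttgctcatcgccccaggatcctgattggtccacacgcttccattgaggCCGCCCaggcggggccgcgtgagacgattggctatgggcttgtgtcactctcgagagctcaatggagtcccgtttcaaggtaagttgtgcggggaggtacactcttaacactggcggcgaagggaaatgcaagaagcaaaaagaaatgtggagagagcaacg
PCDH9: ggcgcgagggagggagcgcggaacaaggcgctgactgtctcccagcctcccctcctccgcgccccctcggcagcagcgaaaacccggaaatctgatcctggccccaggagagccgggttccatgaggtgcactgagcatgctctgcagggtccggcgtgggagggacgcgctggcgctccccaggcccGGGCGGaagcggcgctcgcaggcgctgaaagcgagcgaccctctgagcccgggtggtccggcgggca
DNAH5: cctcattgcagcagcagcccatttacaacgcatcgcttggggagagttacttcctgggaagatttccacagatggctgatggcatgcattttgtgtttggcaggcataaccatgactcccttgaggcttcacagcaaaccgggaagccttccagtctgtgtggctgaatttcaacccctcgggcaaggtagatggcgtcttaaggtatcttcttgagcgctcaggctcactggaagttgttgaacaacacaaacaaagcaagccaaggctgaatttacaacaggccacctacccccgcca
BST2: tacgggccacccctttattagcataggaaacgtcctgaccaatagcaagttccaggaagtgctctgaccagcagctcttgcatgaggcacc
Both KRTAP4-6 matches were AP-1 motifs in a stretch with 1 CpG and 41.3% GC. By contrast, the ELAVL2 and PCDH9 stretches held 22 and 27 CpGs and no AP-1 match. The ARRDC4 stretch held 1 match of each motif. The AP-1 match in the window of EFL1 lies outside the part printed. A match is a description of the letters and not of a bound site.

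The precision differed between the groups. Summed over all bins, the values of a library came to between 12370094 and 25232000 in DU-145 and between 9142900 and 13606129 in BT-549 vehicle cells, but only between 2502510 and 3267024 in the 3 BT-549 DOX libraries. Of the BT-549-only members, 94.2% to 98.6% lay under a peak in a vehicle library and 39.8% to 45.4% in a DOX library. The corresponding shares of DU-145-only members were 71.5% to 88.4% with vehicle and 85.7% to 93.9% with DOX. According to the methods of the study, the replicates of a condition were biologically independent. The promoter of MUC1 itself was accessible in both lines, where its highest bin had a log2 fold change with DOX of -0.53 (SE 0.11, edgeR adjusted p = 7.28e-06) in DU-145 and -0.36 (SE 0.15, edgeR adjusted p = 0.0766) in BT-549. Since a hairpin targets RNA, this bin is no check of the silencing. Over all promoter regions present in both tables, the median log2 fold change was -0.386 in DU-145 and 0.196 in BT-549.

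The lines carried the promoters of their labels only in part. The marker counts are of regions in each line's own table, and peaks that did not reach the table are left out. All 9 epithelial marker genes, among them the keratins KRT8 and KRT18 and the adhesion molecules EPCAM and CDH1, had an accessible promoter region in DU-145. In BT-549, 3 of 9 had one. KRT8, KRT18, EPCAM and CDH1 had none there, but their DU-145 regions overlapped a BT-549 peak or bin, so that a missing region does not mean a closed promoter. Of 11 mesenchymal markers, 10 had one in BT-549 and 6 in DU-145. Of 5 prostate luminal markers, 2 had an accessible promoter in DU-145, and KLK3 and FOLH1 had none in either line. Of 5 breast luminal markers, 2 had one in BT-549 and 5 in DU-145. Of 5 haematopoietic and 5 endothelial markers, no line had more than 1 of either list.

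Members were weaker and narrower than promoters present in both tables. The median DU-145-only member had 6 bins of 100 bp and a mean coverage of 0.87 CPM (scaled to library size) in its highest bin, against 16 bins and 5.04 CPM for the 12433 DU-145 promoter regions that were also in the BT-549 table. The median BT-549-only member had 7 bins and 1.14 CPM, against 14 bins and 4.93 CPM for the 12595 shared promoter regions of that line. A TSS lay inside 54% of DU-145-only and 58.8% of BT-549-only members, compared with 93.7% and 91.9% of shared promoters. Promoter regions that were missing from the other table but lay under a peak of the other line were like members in this, with medians of 8 bins and 0.909 CPM in DU-145 and 7 bins and 1.07 CPM in BT-549, and with a TSS inside 59.5% and 53.3% of them. All 6 libraries had a peak at 813 DU-145-only members and at 224 BT-549-only members, and 250 and 394 members, respectively, met the minimum of 3 libraries exactly. In BT-549, 347 of the 898 members had a peak in all 3 vehicle libraries and in no DOX library. This pattern was also found in 16150 of all 46298 BT-549 regions and in 821 of the 12595 shared promoters. The DOX libraries were shallower, and the part of depth in these counts was not tested.

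Coverage near the limits of the rule was as follows. The 91 DU-145-only members in the last 100 bp inside the limit of 1000 bp had a median of 0.702 CPM, and the 90 regions in the first 100 bp outside it had 0.608 CPM. In BT-549, the corresponding values were 0.861 CPM for 43 members and 0.951 CPM for 50 regions left out. A peak in just 1 library of the other line left out 495 DU-145 and 188 BT-549 promoter regions, with median coverages of 0.899 and 1.12 CPM. Their median GC content was 58% in DU-145 and 60% in BT-549, against 52.7% and 60.8% in members, and their median ratio of observed to expected CpGs was 0.286 and 0.329, against 0.253 and 0.502.

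Most members did not mark a gene that was closed in the other line. Of the 1499 DU-145-only members, 951 belonged to genes with a start site that was accessible in BT-549, meaning a bin or a peak within 1000 bp. All start sites of a gene were counted, also the one nearest to the member, so that these members need not be alternative promoters. The remaining 548 members, of 512 genes, belonged to genes with no such start site. Of the 898 BT-549-only members, 499 belonged to genes with an accessible start site in DU-145, and 399 members of 355 genes to genes with none. Members of genes without an accessible start site in the other line were closer to typical promoters. A TSS lay inside 72.6% (DU-145) and 77.2% (BT-549) of these regions, against 43.3% and 44.1% of the others.

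A set of 39 genes had members in both groups, which was 2.88% of the DU-145-only and 4.91% of the BT-549-only genes. In 34 of them, the nearest start sites of the DU-145-only and the BT-549-only region lay more than 1000 bp apart, with a median over the 39 genes of 21923 bp and a maximum of 344612 bp. CALD1, which encodes the actin-binding protein caldesmon, had a DU-145-only region at chr7:134891001-134892200 with 4.27 CPM and BT-549-only regions at chr7:134779101-134780700 with 6.87 CPM and at chr7:134742201-134743300 with 1.96 CPM. RGS3, a regulator of G-protein signalling, had 3 DU-145-only regions of 0.411 to 1.69 CPM and BT-549-only regions of 2.4 and 11.1 CPM, the nearest of them 12057 bp apart. LTBP4, a latent TGFβ-binding protein, had 1.58 CPM at chr19:40592001-40592500 in DU-145 and 5.05 CPM at chr19:40613101-40614500 in BT-549. MEST, an imprinted gene, had 6.48 CPM at chr7:130485701-130487200 in DU-145 and 0.982 CPM at chr7:130491101-130491500 in BT-549. Levels in CPM are relative to each line's own table and were not tested between lines.

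The 2 groups differed in CpG content. The ratio of observed to expected CpGs in the 300 bp around the highest bin had a median of 0.253 in DU-145-only and of 0.502 in BT-549-only members, against 0.844 and 0.849 in the shared promoters and 0.152 and 0.186 in distal regions found in one line only. A ratio of at least 0.6 was found in 22.5% of DU-145-only, 43.8% of BT-549-only and 84.7% and 85% of shared promoters. Among members of genes without an accessible start site in the other line, the share was 41.2% in DU-145 and 65.9% in BT-549. Median GC content was 52.7% in DU-145-only and 60.8% in BT-549-only members. These are descriptions of fixed sequence, without a test.

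**Figure D1:**
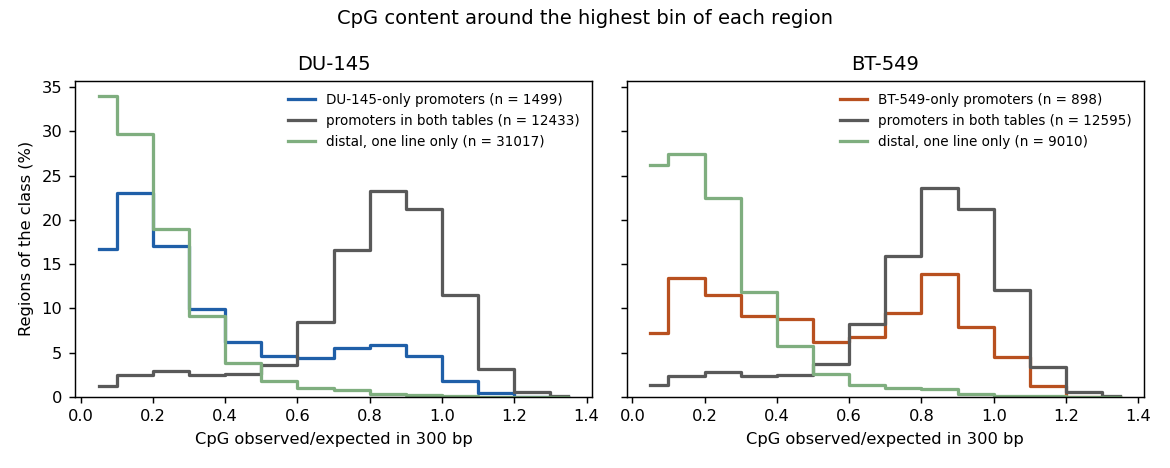
Share of regions (%, y axis) by the ratio of observed to expected CpGs in the 300 bp around the highest bin (x axis), in steps of 0.1 with values past the last step in it, for line-only promoters, promoters in both tables and distal regions of one line only. DU-145-only promoters (median 0.253) lie mostly with the distal regions, and BT-549-only promoters (median 0.502) are spread over both ends.

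The sequence motifs differed in the same comparison. AP-1 matches (TGANTCA) were present in 32.8% of DU-145-only members, 7.8% of BT-549-only members and 6.36% and 5.45% of shared promoters, and in 37.3% and 22.7% of all accessible regions of DU-145 and BT-549. GC boxes were present in 28.3% of DU-145-only and 41.4% of BT-549-only members, against 73.2% and 73.6% of shared promoters. The E-box CAGGTG, a sequence bound by ZEB and SNAI repressors and by bHLH factors, was found in 35.9% of DU-145-only and 18.4% of BT-549-only members, with 20.8% and 19% in shared promoters. Promoter regions missing from the other table but under a peak of the other line held the E-box in 35.1% (DU-145) and 25.1% (BT-549) of cases. Their AP-1 shares were 21.5% and 7.2%. The E-box share of DU-145-only members was thus not particular to them. The CCAAT box had similar shares everywhere, 28.1% in DU-145-only, 27.2% in BT-549-only and 33.2% and 32.7% in shared promoters. Matches to TATAAA were found in 10.3% of DU-145-only and 7.8% of BT-549-only members, and in 3.23% of shared promoters of either line. The TEAD sequence GGAATGT was in 5.67% and 4.34% of members, an NF-kB motif (GGGA and CC with any 4 bases between) in 24.8% and 29.6%, and the CRE TGACGTCA in 0.6% and 0.78%. All motifs were searched on both strands, and GC boxes and NF-kB matches can overlap.

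**Figure D2:**
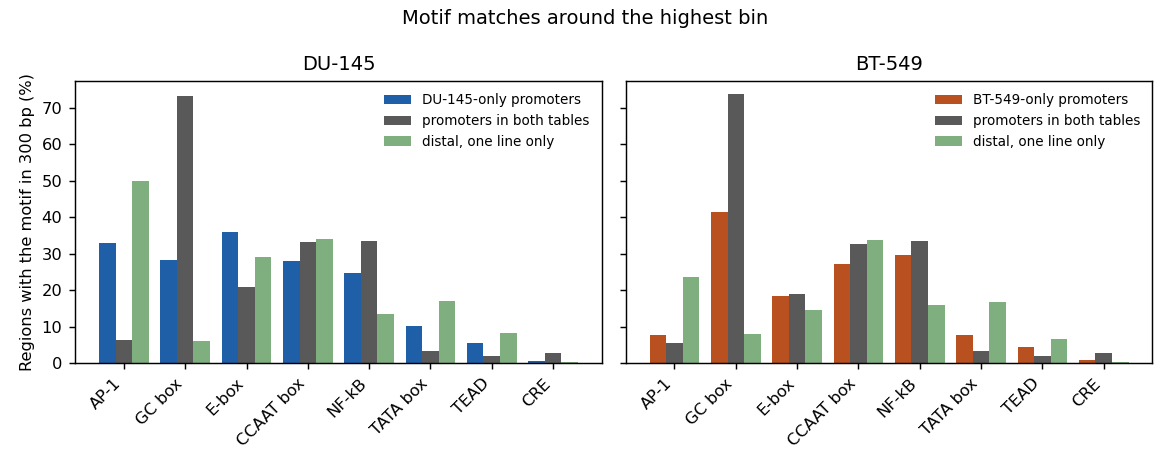
Share of regions (%, y axis) with at least 1 match to each motif (x axis) in the 300 bp around the highest bin, for line-only promoters, promoters in both tables and distal regions of one line only. The AP-1 bar of DU-145-only promoters (32.8%) stands between that of shared promoters (6.36%) and that of distal regions (49.9%), and the AP-1 bar of BT-549-only promoters is at 7.8%.

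Members were unevenly spread over the chromosomes. DU-145-only regions made up 5.49% to 18.6% of the promoter regions of a chromosome in DU-145, with a median over chromosomes of 9.88%, and were most frequent on chromosome 18. BT-549-only regions made up 2.39% to 16.4%, with a median of 6.37%, and were most frequent on chromosome 8, where 104 of 634 promoter regions were members. In DU-145, chromosome 8 had the lowest share, with 31 of 565. Of the 9010 distal regions found only in BT-549, 1425 were also on chromosome 8. Copy number was not measured in these data, and its part in the counts was not tested.

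**Figure D3:**
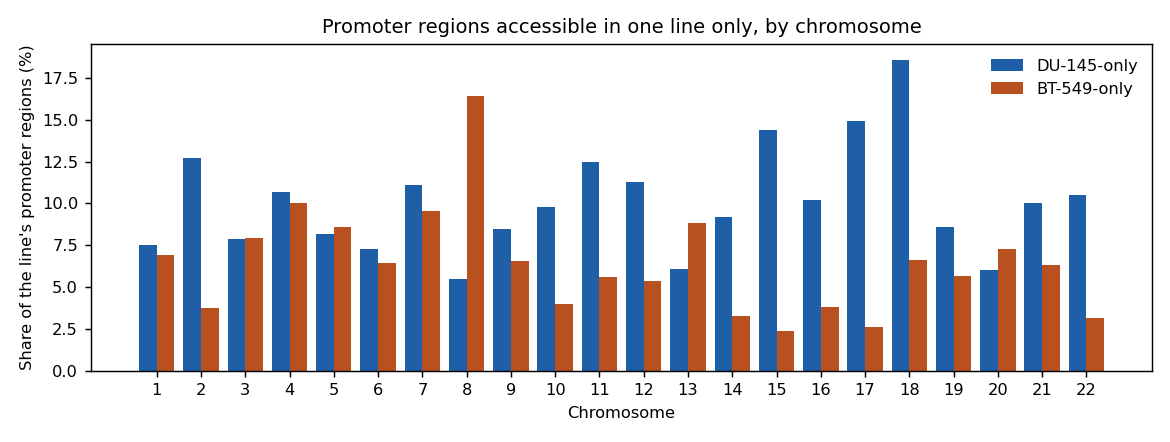
Share of a line's promoter regions that are accessible in that line only (%, y axis) for each autosome (x axis). BT-549-only promoters reach 16.4% on chromosome 8, where the DU-145-only share is lowest at 5.49%.

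In genome order over the promoter regions of both tables, 11 runs of at least 4 neighbouring DU-145-only members held 58 regions, and 10 such runs of BT-549-only members held 44. The longest, 14 DU-145-only regions at chr1:152087901-153358300, covered the epidermal differentiation complex, a cluster of genes for the cornified envelope of skin, from TCHHL1 through LCE3E, IVL and SPRR1B to the calcium-binding S100A9. Normalized coverage, used from here on, is the value of the highest bin scaled to the mean library size of the line. Involucrin (IVL) had the highest coverage there, 3.91 CPM, with normalized coverages of 82.4, 77.5 and 72.2 with vehicle and 68.7, 71.8 and 68.8 with DOX. BT-549 had 83 library peaks in that span of 1270 kb, none of them at these promoters, and DU-145 had 538. Another DU-145-only run held 6 members of the protocadherin alpha cluster, PCDHA2 to PCDHA7, at chr5:140794701-140834900, with 0.84 to 2.31 CPM.

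Among the runs of BT-549-only members, the longest had 5 regions. The run at chr9:23779301-25679500 held 4 regions of ELAVL2, a neuronal RNA-binding protein, and TUSC1, and DU-145 had no peak of any library in those 1900 kb, where BT-549 had 100. The run at chr8:109973801-115661700 held KCNV1, CSMD3 and TRPS1, with 1063 library peaks in BT-549 and 0 in DU-145 over 5690 kb. The run at chr4:133146301-137533100 held the protocadherins PCDH10 and PCDH18 and PABPC4L, with 118 library peaks in BT-549 and 29 in DU-145. Lack of a peak does not separate closed chromatin from DNA that is missing or poorly mapped in DU-145, and this was not tested.

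The genes of the members fell into groups that differed between the lines. As a background, 7.21% of the 18765 autosomal protein-coding genes had a DU-145-only member and 4.23% a BT-549-only member. Of 50 genes of epithelial junctions and identity, 13 (26%) had a DU-145-only member and 3 (6%) a BT-549-only member. Of 37 genes of EMT factors and mesenchyme, 3 (8.11%) had a DU-145-only and 11 (29.7%) a BT-549-only member. Since membership is the rule itself, these shares are counts without a test.

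The epithelial group in DU-145 included the desmosome genes EVPL, PKP1 and JUP, the tight junction genes CLDN10, TJP3, MARVELD3 and CRB3, the transcription factors GRHL2 and ELF3, and the protease inhibitors SPINT1 and SPINT2. EVPL, which encodes envoplakin, showed normalized coverages of 119, 124 and 128 with vehicle and 89.7, 109 and 75.3 with DOX. KRT19, a keratin of simple epithelia, had 92.3, 112 and 102 with vehicle and 65.6, 98.7 and 79.1 with DOX at chr17:41526901-41529000. EVPL lay lower in all 3 DOX libraries, whereas the KRT19 libraries overlapped between the conditions. With GC correction, the log2 fold change turned from -0.43 to 0.12 for EVPL and from -0.33 to 0.22 for KRT19, and no direction is read from them. GRHL2 was weak, with 4.5 to 11.6 with vehicle and 12.1 to 18.2 with DOX. In all, 3 of 21 epithelial keratin genes were DU-145-only (KRT4, KRT16 and KRT19), and none was BT-549-only. KRT8, KRT18, EPCAM and CDH1 had no promoter region in the BT-549 table, but their DU-145 regions overlapped a BT-549 peak or bin and were therefore no members.

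Other DU-145-only groups were enzymes and receptors. Of 38 genes of aldehyde dehydrogenases, glutathione and drug metabolism, 9 (23.7%) had a DU-145-only member and 1 a BT-549-only member, GPX7. Of 40 nuclear receptors and related factors, 9 (22.5%) were DU-145-only, among them RARA, NR2E3 and NR4A1, and 4 (10%) were BT-549-only. Of 37 integrin and laminin genes, 6 were DU-145-only. The collagenase MMP1 and the stromelysins MMP10 and MMP3, which are neighbours on chromosome 11, were 3 of the 4 DU-145-only members among 36 matrix protease genes. Further DU-145-only counts were 3 of 18 mucins (MUC15, MUC16 and MUC22, against 0 in BT-549), 8 of 55 FGF, ERBB and related ligands and receptors (4 in BT-549), 10 of 82 cytokines, chemokines and receptors (2 in BT-549) and 8 of 63 SOX, FOX, GATA, KLF and RUNX factors (7 in BT-549).

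The mesenchymal group in BT-549 included the EMT transcription factors TWIST1 and ZEB2, the cadherins CDH2 and CDH11, the PDGF receptors PDGFRA and PDGFRB, and SPARC, ACTA2, THY1, MGP and TCF4. TWIST1 had normalized coverages of 38.6, 42.7 and 34.6 with vehicle and 36.8, 37.2 and 42.5 with DOX, with a log2 fold change of 0.00 (SE 0.23). CDH2, which encodes N-cadherin, had 36.1, 36.3 and 39.8 with vehicle and 26.8, 43.7 and 32.9 with DOX. The vehicle and DOX libraries overlapped at both genes. Of the 11 genes, 5 had no accessible start site in DU-145 (TWIST1, CDH2, CDH11, PDGFRB and THY1).

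Genes of development and of the nervous system were the other large BT-549-only groups. Of 30 cadherins and protocadherins, 9 (30%) were BT-549-only, among them PCDH9, PCDH10, PCDH17 and PCDH20, and 1 was DU-145-only. The list does not hold the clustered protocadherins, of which PCDHA2 to PCDHA7 were DU-145-only. Of 122 HOX and other homeobox factors, 22 (18%) were BT-549-only, with genes of the HOXA, HOXB and HOXC clusters, and 8 (6.56%) were DU-145-only. Of 70 neuronal and neuroendocrine genes, 14 (20%) were BT-549-only and 10 (14.3%) DU-145-only. Of 64 genes of ephrin, semaphorin and axon guidance signalling, 12 (18.8%) were BT-549-only, including the receptors EPHA3, EPHA4, EPHA5, EPHA6 and EPHA7 and ROBO1 and ROBO2, and 5 were DU-145-only. Of 49 WNT pathway genes, 8 (16.3%) were BT-549-only, including the agonists RSPO1 and RSPO2 and the inhibitors DKK2, DKK3, SFRP1 and SFRP2, and 4 were DU-145-only. Of 53 interferon-stimulated effectors, 11 (20.8%) were BT-549-only and 4 (7.55%) DU-145-only. Counts were small or alike in collagens (2 DU-145-only and 5 BT-549-only of 42), TGFβ and BMP genes (4 and 4 of 50), prostate and breast lineage factors (2 and 0 of 32), tumor suppressor and cell cycle genes (2 and 1 of 28), germline genes (3 and 0 of 40), haematopoietic markers (3 and 1 of 42) and endothelial markers (1 and 2 of 21).

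The members with the highest coverage were also of different kinds. In DU-145 they were led by ARRDC4, an arrestin-domain protein, with 564, 535 and 504 with vehicle and 478, 347 and 412 with DOX. Its log2 fold change was -0.39, but 0.14 with GC correction and 0.29 with loess offsets. Next were STRN3, SRI, RAI14, THEM4, FAM110C, HOOK1 and MPPE1, with the highest bin in an intron (STRN3, MPPE1), upstream (SRI, FAM110C, HOOK1), in a coding exon (RAI14) or in an untranslated exon (THEM4). STRN3, a subunit of the striatin phosphatase complex, had 283, 323 and 303 with vehicle and 446, 510 and 429 with DOX, at a bin in an intron 1992 bp from the nearest TSS, whereas the region itself reached to within 1000 bp. STRN3, SRI, RAI14 and MPPE1 had an accessible start site in BT-549, and ARRDC4, THEM4, FAM110C and HOOK1 had none.

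In BT-549, RSPO2, ELAVL2, PCDH9, SLITRK5, MAD1L1, TUSC1, SIM1 and NEGR1 led. RSPO2, an agonist of WNT signalling, had normalized coverages of 107, 112 and 109 with vehicle and 126, 126 and 136 with DOX. ELAVL2 had 104, 99.3 and 118 with vehicle and 120, 117 and 131 with DOX. PCDH9 had 91, 111 and 115 with vehicle and 125, 95.1 and 110 with DOX, and the conditions overlapped. All of these genes except MAD1L1 had no accessible start site in DU-145.

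DOX against vehicle was tested over all accessible regions of each line with edgeR's quasi-likelihood test, and a region was called opening or closing (a differentially accessible region, DAR) when it changed at least 2-fold with an adjusted p below 1e-05 (DU-145) or 0.01 (BT-549). The fold change with DOX was not used to choose members, and all 1499 and 898 members were tested. However, a region needed a peak in 3 libraries, and these could all be of 1 condition: 118 DU-145-only members had peaks in all DOX and no vehicle libraries, 39 had the reverse, and in BT-549 these numbers were 2 and 347. Such members were selected where they are high. Of the 140 opening DU-145-only members, 56 had peaks in DOX libraries only, and of the 76 closing members, 26 had peaks in vehicle libraries only. In BT-549, 2 of the 29 opening members had peaks in DOX libraries only, and 12 of the 29 closing members in vehicle libraries only. Among DU-145-only members, 140 (9.34%) opened and 76 (5.07%) closed, compared with 11.6% and 4.61% of all 79177 regions of the line. Among the shared promoters of DU-145, 0.668% opened and 0.869% closed, and among distal regions found only in DU-145, 18% opened and 7.35% closed. Among BT-549-only members, 29 (3.23%) opened and 29 (3.23%) closed, compared with 3.87% and 5.97% of all 46298 regions, 3.09% and 0.826% of shared promoters, and 4.36% and 10.7% of distal regions found only in that line. At an adjusted p under 0.05 with no limit on the fold, 357 DU-145-only members were higher and 302 lower with DOX (23.8% and 20.1%, against 27.6% and 24.1% of all regions), and 60 and 57 BT-549-only members (6.68% and 6.35%, against 9.82% and 10.7%). The member shares were thus at or below those of all regions in each line, apart from closing in DU-145. At the limit of 0.05, shared promoters were higher in 2.73% and lower in 59.8% of cases in DU-145. In BT-549, 15.7% of shared promoters were higher and 2.68% lower. Their median log2 fold change was -0.386 in DU-145 and 0.196 in BT-549. The median log2 fold change was 0.04 over DU-145-only members and 0.06 over BT-549-only members, beside 0.03 and -0.04 over all regions. With GC correction, the member medians were 0.31 in DU-145 and -0.08 in BT-549, beside 0.23 and -0.08 over all regions. With loess offsets, the DU-145 member median was -0.14, beside -0.05 over all regions. No direction is read from these medians. The counts depended on the test and the scaling. DESeq2 called 46 DU-145-only members opening and 29 closing, and the mean over the bins of a region gave 52 and 39. Loess offsets gave 95 opening and 93 closing, so that the excess of opening calls was lost. Without vehicle replicate 2 there were 87 opening. In BT-549, DESeq2 called 8 and 10, and the mean over bins gave 5 and 5. A change in accessibility per cell and a change in the share of cells with an open promoter cannot be told apart in these bulk libraries.

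**Figure D4:**
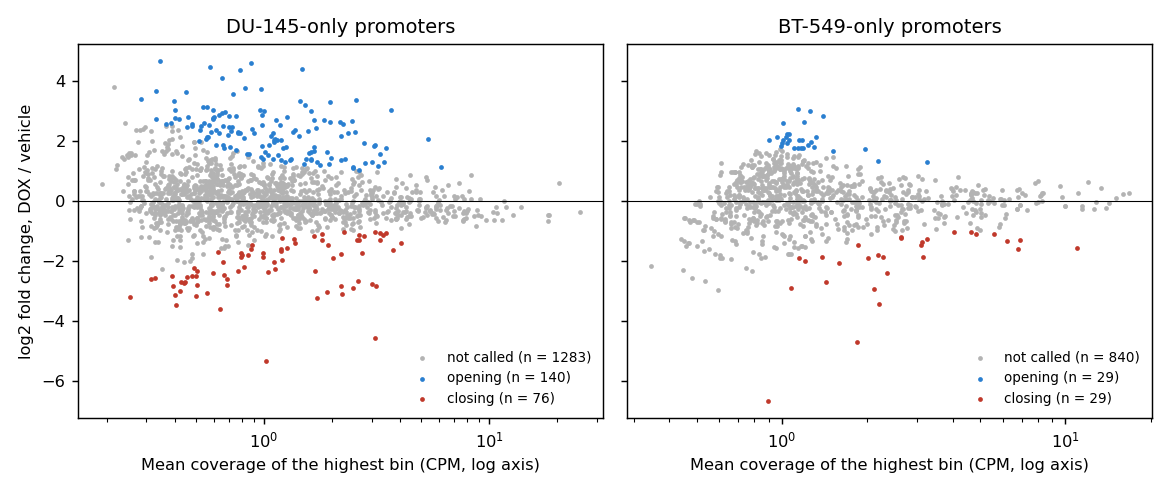
log2 fold change of DOX over vehicle (y axis) against the mean coverage of the highest bin (CPM, log x axis) for each line-only promoter, with opening and closing calls in color. For DU-145-only promoters, median coverage is 1.03 CPM in the 140 opening and 1.08 CPM in the 76 closing calls. For BT-549-only promoters, it is 1.15 CPM in the 29 opening and 2.35 CPM in the 29 closing calls.

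In DU-145, CpG-rich members were seldom called. Of the 337 DU-145-only members with a CpG ratio of at least 0.6, 2 opened (0.593%) and 1 closed (0.297%), against 138 (11.9%) and 75 (6.45%) of the 1162 others. Over all DU-145 regions, the same split gave 0.223% opening and 0.511% closing against 14.3% and 5.59%. The members that opened were GALNT3, a glycosyltransferase that starts mucin-type O-glycans, and FOXQ1, a forkhead transcription factor. GALNT3 had 34, 29.7 and 35 with vehicle and 80, 77.8 and 79.5 with DOX, a log2 fold change of 1.3 (SE 0.161, edgeR adjusted p = 6.06e-12). Of the 393 CpG-rich BT-549-only members, 5 opened and 3 closed, against 24 and 26 of the 505 others. Over all BT-549 regions, 3.21% of the CpG-rich regions opened and 0.454% closed, against 4.17% and 8.49% of the others. The 8 calls of CpG-rich BT-549-only members became 1 with the mean over bins, and the 3 of DU-145 became 0.

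In DU-145, opening members often held an AP-1 match. Of 492 members with one, 86 (17.5%) opened and 13 (2.64%) closed, and of 1007 without one, 54 (5.36%) opened and 63 (6.26%) closed. All DU-145 regions gave 19.7% opening and 3.16% closing with the motif and 6.79% and 5.47% without it, so that members followed the split of the whole table. Of the members with the motif, 68 had peaks in all DOX and no vehicle libraries and 6 had the reverse, against 50 and 33 of those without it, and membership through one condition favours calls in its direction. Shared promoters with the motif opened in 5.94% of cases. An AP-1 match was present in 61.4% of the opening and 17.1% of the closing DU-145-only members. With DESeq2, 32 of the 492 members opened. In BT-549, 0 of 70 members with the motif opened and 3 closed, while 5.3% of all BT-549 regions with the motif opened and 11.4% closed (3.45% and 4.38% without it).

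The opening DU-145-only members with the smallest adjusted p were EFL1, ARHGAP28, NR2E3, KRTAP4-6 and MFSD1, and each had an AP-1 match in its 300 bp window. EFL1, a GTPase of ribosome maturation, had 17.9, 16.1 and 7.12 with vehicle and 134, 107 and 117 with DOX at chr15:82159901-82160500, a log2 fold change of 3.02 (SE 0.19, edgeR adjusted p = 6.26e-30). ARHGAP28, a GTPase-activating protein, had at chr18:6836101-6836800 values of 13.6, 6.55 and 5.07 with vehicle and 95.2, 82.2 and 77.4 with DOX. NR2E3, an orphan nuclear receptor of photoreceptors, had 46, 37.2 and 31.8 with vehicle and 162, 156 and 157 with DOX. These regions were named among those without overlap between the conditions. The ARHGAP28 and KRTAP4-6 regions had a peak in no vehicle library and the MFSD1 region in 1, so that they were members through the DOX libraries.

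Neighbouring hair keratin-associated genes had opening calls. The run of 4 neighbouring DU-145-only members at chr17:41059801-41178700 held KRTAP2-3, KRTAP2-4, KRTAP4-6 and KRTAP4-2, all 4 opened (against 11.6% of all DU-145 regions), and BT-549 had 0 library peaks in its 119 kb. KRTAP4-6 had 2.69, 0.472 and 4.7 with vehicle and 48.4, 48.9 and 56.7 with DOX, a log2 fold change of 4.39 (SE 0.33, edgeR adjusted p = 5.09e-24). KRTAP2-4 had 9.06, 6.93 and 10 with vehicle and 45.8, 62.1 and 48.9 with DOX. KRTAP2-3 rose from between 10.8 and 14.8 to between 44.8 and 52.2, and KRTAP4-2 from between 0.929 and 3.31 to between 20.3 and 26.8. Each of the 4 held an AP-1 match. KRTAP4-6 and KRTAP4-2 had a peak in the 3 DOX libraries and in no vehicle library, and KRTAP2-4 in 3 DOX libraries and 1 vehicle library. They were thus members through the DOX libraries, which favours opening calls, whereas KRTAP2-3 had a peak in all 6. KRTAP genes of a family are near-identical in sequence, and how the authors' alignment placed reads between copies is not given in the sources used here.

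In the epidermal run on chromosome 1, the late cornified envelope gene LCE3E and the small proline-rich gene SPRR1B opened, and both were members through the DOX libraries only, with a peak in no vehicle library. SPRR1B had 3.12, 4.22 and 0 with vehicle and 18.4, 23.6 and 19.8 with DOX, a log2 fold change of 2.86 (edgeR adjusted p = 3.73e-10). LCE3E had 2.87, 3.25 and 10.6 with vehicle and 23.9, 29.1 and 27.4 with DOX. S100A9 had 33.1, 45.3 and 45.2 with vehicle and 17.5, 22.8 and 22.2 with DOX, a log2 fold change of -1 (edgeR adjusted p = 1.37e-05), which missed the DAR cutoff. IVL, the strongest member of the run, had a log2 fold change of -0.15 (edgeR adjusted p = 0.389). The 2 opening calls of the run thus came from members selected where they are high, and no direction is read for the run.

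Single members of other lists also had opening calls in DU-145, 1 of 4 matrix protease, 1 of 3 mucin, 1 of 4 WNT and 1 of 10 cytokine and receptor regions, against 11.6% of all regions. MMP3 and MUC22 had a peak in the 3 DOX libraries and in no vehicle library, DKK2 in 3 DOX libraries and 1 vehicle library, and IL1RL1 in 2 vehicle libraries. None of them met the minimum of 3 libraries with vehicle alone. They were thus members through the DOX libraries, where they are high, which favours opening calls. MMP3 had 0.0539, 3.37 and 4.73 with vehicle and 13.7, 21.7 and 22.2 with DOX, a log2 fold change of 2.80 (SE 0.40, edgeR adjusted p = 1.68e-09). Its neighbours MMP1 and MMP10 had log2 fold changes of 0.23 and 0.07 with edgeR adjusted p of 0.413 and 0.834. MUC22 had 3.21, 4.21 and 1.94 with vehicle and 13, 17.3 and 17.6 with DOX. DKK2, a secreted WNT inhibitor, had 41.5 to 44.2 with DOX and lower values with vehicle in all 3 libraries, a log2 fold change of 2.17 (SE 0.24, edgeR adjusted p = 1.03e-13) at chr4:107283601-107284100. IL1RL1, the receptor for IL33, had 1.72, 4.62 and 9.53 with vehicle and 46.5, 50.4 and 45.3 with DOX.

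The closing DU-145-only members were led by RFTN1, KIAA0319L, LZTFL1, IQGAP2 and MFAP3L. RFTN1, which encodes the lipid raft protein raftlin, had 114, 108 and 126 with vehicle and 4.08, 5.08 and 4.31 with DOX at an intronic region at chr3:16482701-16483600, a log2 fold change of -4.58 (SE 0.22, edgeR adjusted p = 3.61e-39). KIAA0319L had 105, 97.8 and 117 with vehicle and 14.4, 16.5 and 12.9 with DOX. LZTFL1, a regulator of ciliary protein traffic, had 99.7, 113 and 93.2 with vehicle and 11.1, 18.6 and 14.8 with DOX. MFAP3L had a peak in the 3 vehicle libraries and in no DOX library, and was thus a member through the vehicle libraries only, which favours a closing call. The 5 regions were named among those without overlap between the conditions, and all of these genes had a start site that was accessible in BT-549. Among the listed genes, the receptor tyrosine kinase ERBB2 had 61.5, 74.4 and 63.2 with vehicle and 6.59, 10.9 and 5.77 with DOX at an intronic region at chr17:39702701-39703800, a log2 fold change of -3.04 (SE 0.22, edgeR adjusted p = 1.02e-24). NR4A1, an orphan nuclear receptor with a peak in vehicle libraries only, had 14.9, 18.1 and 18.7 with vehicle and 1.34, 3 and 2.22 with DOX.

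Among the 9 DU-145-only members of the drug metabolism list, CYP4F11, CYP4F3 and GPX2 closed and none opened, beside 4.61% closing and 11.6% opening of all DU-145 regions. The fatty acid and eicosanoid hydroxylases CYP4F3, CYP4F12 and CYP4F11 are neighbours on chromosome 19 in 1 run with the olfactory receptor gene OR10H1. CYP4F11 had 81.9, 86.1 and 97.9 with vehicle and 47.4, 39.4 and 34.3 with DOX, a log2 fold change of -1.14 (SE 0.15, edgeR adjusted p = 4.06e-11). CYP4F3 had a log2 fold change of -1.04 (edgeR adjusted p = 2.4e-09), and CYP4F12 had -1.04 (edgeR adjusted p = 1.87e-07). OR10H1, with a peak in DOX libraries only, opened, with 0, 2.01 and 4.31 with vehicle and 9.8, 15.1 and 15.1 with DOX. GPX2 had a peak in vehicle libraries only. The CYP4F changes lay near the fold cutoff, and 0 of the 3 were called after a correction for GC content.

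Of the 15 epithelial junction regions, LLGL2, a polarity gene, opened and JUP, which encodes plakoglobin, closed. At an adjusted p under 0.05 there were 6 higher and 3 lower, beside 27.6% and 24.1% of all DU-145 regions. LLGL2 had 4.11, 4.65 and 1.7 with vehicle and 16.9, 21.3 and 13.5 with DOX, and JUP had 34.4, 33.9 and 42.3 with vehicle and 9.23, 16 and 9.9 with DOX. Of the 12 neuronal regions, NRXN2 opened, and NCAM1 and SCN1A closed, SCN1A with a peak in vehicle libraries only. Of all DU-145 regions, 11.6% opened and 4.61% closed, and the lists were not tested against them. None of the 4 keratin, 8 homeobox, 2 collagen, 6 integrin and laminin or 4 interferon-stimulated regions of DU-145 was a DAR.

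**Figure D5:**
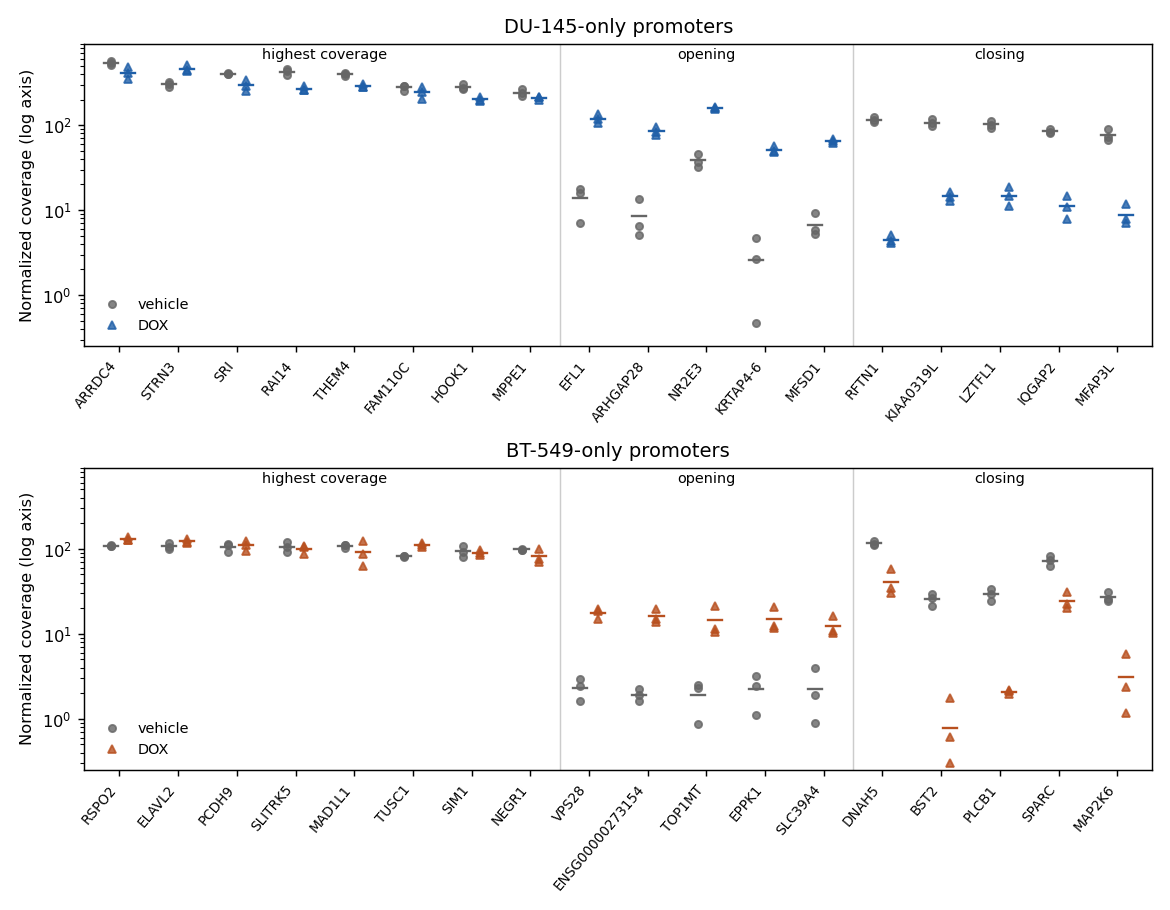
Normalized coverage of the highest bin (log y axis) in each of the 3 vehicle and 3 DOX libraries, with a bar at the mean, for the 8 members of highest coverage and the 5 opening and 5 closing members with the smallest adjusted p in each line (x axis, by gene). Values under 0.3, as in 1 DOX library at BST2, are drawn at 0.3, and the opening and closing members were chosen among those without overlap between the conditions.

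In BT-549, 7 of the 13 regions of the 11 interferon-stimulated genes were called closing and none opening, and 8 were lower at an adjusted p under 0.05, beside 5.97% and 10.7% of all BT-549 regions and 3.23% and 6.35% of the members. All 13 regions had a peak in all 3 vehicle libraries, and none had a peak in more than 1 of the DOX libraries, which were shallower. They were therefore members through the vehicle libraries, which favours closing calls, and the count does not show that the list closed as a group. These genes encode antiviral effectors that type I interferon induces. IFI44L had 26.9, 26.3 and 23 with vehicle and 7.27, 6.72 and 6.85 with DOX at chr1:78619201-78621100, a log2 fold change of -1.87 (SE 0.40, edgeR adjusted p = 0.000236). GBP5, a guanylate-binding protein, had 27.8, 30.6 and 23.7 with vehicle and 14.1, 3.87 and 0.496 with DOX. XAF1 had 18.4, 20.7 and 19.3 with vehicle and 5.24, 10.6 and 5.34 with DOX, a log2 fold change of -1.47 (edgeR adjusted p = 0.0093). Every DOX library lay under every vehicle library at these genes.

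BST2, which encodes tetherin, had 26.2, 29.1 and 21 with vehicle and 0.61, 0 and 1.74 with DOX at chr19:17405201-17406400 (edgeR adjusted p = 4.83e-09). IFI27 had 11.8, 11.4 and 14.9 with vehicle and was listed at 0 in all 3 DOX libraries (edgeR adjusted p = 1.08e-05). No fold is given for these genes, since the DOX libraries held almost no fragments there. IFITM1 and SAMD9L also closed, with vehicle values of 14.9 to 17.3 and 11.8 to 16.2 and DOX values of 1.81 to 4.51 and 0.901 to 7.24. Of the 6 regions that were not called, TRIM22 (log2 fold change -1.78, edgeR adjusted p = 0.0207) was lower, and those of MX2, IFIT3, IRF1 and the second SAMD9L region had edgeR adjusted p of 0.0716 to 0.588. The 7 calls became 4 without DOX replicate 2 or DOX replicate 3, 3 with DESeq2 and 1 when the mean over the bins of a region replaced its highest bin.

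Among the other closing BT-549-only members, DNAH5, PLCB1, SPARC and MAP2K6 had the smallest adjusted p beside BST2. DNAH5, an axonemal dynein chain, had 111, 125 and 113 with vehicle and 34.7, 57.4 and 30.3 with DOX at an intronic region at chr5:13945401-13947000, a log2 fold change of -1.58 (SE 0.19, edgeR adjusted p = 1.92e-11). SPARC, a matricellular glycoprotein of mesenchyme, had 73.6, 81.5 and 63.5 with vehicle and 31.1, 20 and 22.4 with DOX, a log2 fold change of -1.60 (SE 0.24, edgeR adjusted p = 2.16e-08). PLCB1 and MAP2K6 had a peak in the 3 vehicle libraries and in no DOX library, and were members through the vehicle libraries only. PLCB1 had 24.5 to 33.9 with vehicle and 1.96 to 2.2 with DOX, and the kinase gene MAP2K6 had 24.4 to 30.7 and 1.17 to 5.85. The T-box factor gene TBX15 had 30.3, 39.4 and 37.1 with vehicle and 3.66, 7.06 and 17.1 with DOX, a log2 fold change of -1.88 (SE 0.35, edgeR adjusted p = 1.32e-05), and its DU-145-only promoter, 74218 bp away, had a log2 fold change of 0.03 (edgeR adjusted p = 0.911). IL20RB, a cytokine receptor subunit, had 66.3, 60.3 and 66.2 with vehicle and 22.9, 19.6 and 31.7 with DOX. COL5A2 had 24.8 to 28.1 with vehicle and 7.77 to 14.3 with DOX, a log2 fold change of -1.22 (edgeR adjusted p = 0.00879), but with the mean over bins the log2 fold change was 0.08 and the call was lost.

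Of all BT-549 regions, 3.87% opened and 5.97% closed, and the lists that follow were not tested against these shares. Of the 14 mesenchymal regions of BT-549, SPARC closed, ACTA2 was lower (log2 fold change -0.88, SE 0.23, edgeR adjusted p = 0.00307) and PDGFRA was higher (log2 fold change 1.61, edgeR adjusted p = 0.0265). None of the 10 cadherin and protocadherin regions was a DAR, and PCDH7 was lower (log2 fold change -0.74, edgeR adjusted p = 0.0357). Of the 18 neuronal regions, CNTNAP2 closed and 1 opened, and NRXN3, a presynaptic adhesion molecule, was higher, with 78.7, 61.3 and 62.9 with vehicle and 103, 102 and 110 with DOX (log2 fold change 0.62, SE 0.16, edgeR adjusted p = 0.00154). Of the 15 ephrin, semaphorin and axon guidance regions, none opened and 1 closed. At an adjusted p under 0.05, 1 was higher and 1 lower, beside 9.82% and 10.7% of all BT-549 regions. The higher region was that of ROBO1, an axon guidance receptor, at a log2 fold change of 0.66 (SE 0.19, edgeR adjusted p = 0.00562).

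The opening BT-549-only members were of another kind. Of 29, 13 lay on chromosome 8 and 23 on chromosomes 7, 8 and 20, which hold 201 of the 898 members, and these chromosomes were singled out after the values were seen. On them 11.4% of members opened, and 0.861% of the members on the other chromosomes did. Over all BT-549 regions, the same split gave 6.41% and 3.33%, so that more opening on these chromosomes was not limited to members. VPS28, an ESCRT-I subunit, had 2.93, 2.46 and 1.6 with vehicle and 18.6, 19.5 and 15.1 with DOX, a log2 fold change of 2.81 (SE 0.48, edgeR adjusted p = 1.62e-06). ENSG00000273154 on chromosome 20 had 2.26, 1.91 and 1.61 with vehicle and 19.8, 15 and 13.7 with DOX. TOP1MT, EPPK1 and SLC39A4, all on chromosome 8, had 0.877 to 3.91 with vehicle and 10.2 to 21.1 with DOX. These 5 were named among those without overlap between the conditions. VPS28 and TOP1MT had a peak in the 3 DOX libraries and in no vehicle library, and were thus members through the libraries where they are high. ENSG00000273154 had a peak in 1 vehicle and 3 DOX libraries, EPPK1 in 2 and 3, and SLC39A4 in 3 and 2.

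Before scaling to library size, the opening BT-549-only members had nearly equal coverage in the 2 conditions, with a median over the 29 regions of 5.11 with vehicle and 5.05 with DOX. The closing members had 44 and 2.73, and the opening members of DU-145 had 5.58 and 35.5. Median GC content was 66.3% in the opening and 50.7% in the closing BT-549-only members, and a TSS lay inside 24.1% and 65.5% of them. There were 13 opening calls with a correction for GC content and 5 with limma-trend. Without DOX replicate 3 there were 9, and without vehicle replicate 1 or DOX replicate 1 there were 18. With the mean over bins, the 23 calls on chromosomes 7, 8 and 20 became 5. The part of depth, GC content and copy number in these calls was not tested.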

How the data were processed

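ATAC-seq libraries of DU-145 and BT-549 cells (12 libraries, 3 replicates per group) were assigned to conditions from the labels, where the vehicle cells are named both as untreated and as given DMSO. The authors aligned fragments to GRCh38 with BWA, removed duplicates with Picard and called peaks per replicate with MACS2 (2.2.7.1 in the submitters' processing notes). They merged regions seen in at least 3 replicates and split them at 100 bp. The deposited values are estimated counts per bin (mean fragment coverage, not normalized for depth). The peak files give, per the file headers of that format, a ratio (fold enrichment) and the -log10 of p-values and q-values for each peak. Only peak positions and, in 1 alternative, q-values were used.

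Members and gene lists were chosen with earlier results of these data known. Each region was represented by its bin with the highest mean CPM. Values were rounded and tested with edgeR 4.0.16 (glmQLFit and glmQLFTest, robust, TMM, R 4.3.3) over all regions with a total of at least 10, with Benjamini-Hochberg adjustment. The SE is the log2 fold change over the square root of F. Normalized coverage is the bin value scaled to the average effective library size within that line. TSSs were the 78580 protein-coding start sites of GENCODE v44. The test was checked on simulated data.

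Named regions were, per line, the 8 members of highest coverage, the 5 opening and 5 closing members with the smallest adjusted p and no overlap between conditions, and up to 4 genes of each of 24 lists by coverage. The other members named were singled out after their values were seen. The alternatives were DESeq2 1.42.0, limma-trend (limma 3.58.1) on log2 of CPM plus 1, RLE factors, library totals, loess offsets, GC correction, the replicate block, other filters, the mean over bins, a fit over all bins, other cutoffs and leaving out each library. Promoter sequences of RefSeq were not used. Some named members and sequences are not reported here.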

Additional observations from a re-analysis of the deposited data

How the results depend on the processing

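The number of members depends on the definition of a promoter. With the start of the gene record as the only TSS, there were 705 DU-145-only and 471 BT-549-only regions, and bins within 2000 bp gave 2484 DU-145-only regions. The other definitions kept the counts within 1.5 times. The calls of DU-145-only members (140 opening, 76 closing) became 52 and 39 with the mean over the bins of a region, 46 and 29 with DESeq2, 357 and 302 at an adjusted p under 0.05 without a fold cutoff and 224 and 117 at an adjusted p under 0.01 with a fold of 2. With loess offsets they became 95 and 93. Leaving out 1 library gave 87 (without vehicle replicate 2) to 129 opening and 56 to 69 closing calls. The calls of BT-549-only members (29 opening, 29 closing) became 5 and 5 with the mean over bins, 8 and 10 with DESeq2, and 60 and 57 at an adjusted p under 0.05 without a fold cutoff. Opening calls alone fell to 13 with GC correction, 6 with filterByExpr and 5 with limma-trend. Leaving out 1 library gave 9 (without DOX replicate 3) to 24 opening calls, with 18 without vehicle replicate 1 or DOX replicate 1, and 15 (without DOX replicate 2) to 26 closing calls. Without a fold cutoff more regions pass by construction. For the other settings the cause was not tested.

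Same-numbered libraries of a line had correlations of their deviations from -0.0138 to 0.0512, and libraries with different numbers had -0.0547 to 0.0322. The labels do not say whether equal numbers mark paired samples, and correlations this small cannot decide it. With the replicate block, BT-549-only members had 19 opening and 29 closing calls, and 10 opening calls with the replicate block and GC correction together, and DU-145-only members had 132 and 71.

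GC correction moved the median log2 fold change over all DU-145 regions from 0.03 to 0.23, and library totals moved it to 0.17. Weak changes of named DU-145-only members changed sign under it: ARRDC4 (0.14, and 0.12 with the block as well), FAM110C (0.34 and 0.31), HOOK1 (0.07 and 0.08), KRT19 (0.22 and 0.23), EVPL (0.12 and 0.14), CD22 (0.22 and 0.21) and NPTX2 (0.01). With loess offsets, ARRDC4 (0.29), SRI (0.12), THEM4 (0.12), FAM110C (0.31), HOOK1 (0.01), MPPE1 (0.26) and CD22 (0.23) changed sign. In BT-549, COL5A2 became 0.08 with the mean over bins. The cause of these sign changes was not tested. Over the 70 named regions that passed an adjusted p of 0.05, 1114 of the values under other settings kept direction and threshold, 120 lost the threshold and 21 changed sign. The counts of calls in subsets of members (AP-1, CpG-rich, the gene runs, the interferon list, chromosomes 7, 8 and 20) were added after seeing the data, and all 4 KRTAP calls were made under each setting. The BT-549 DOX libraries limit what can be seen at low coverage.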
